A study of Mus musculus with 8 samples.

Results

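The aminoacyl-tRNA synthetases of mouse liver are described here, as 35 genes taken by symbol from the 24539 entries of the RNA-seq files and the 25033 entries of the Ribo-seq files. All 35 were present in every library. Of these, 19 encode enzymes of the cytosol, including Gars and Kars, which also serve mitochondria, and 16 encode enzymes of the mitochondria. Tarsl2, a threonyl-tRNA synthetase-like gene, is not among the 35 and was placed with the partners of tRNA charging. The livers came from male C57BL/6 mice put on a high-fat diet (45% of energy from fat) at week 8, with tissue taken at week 25. The HF group received the diet alone, and the HB group received the same diet with betaine, a methyl donor, at 2% (w/v) in the drinking water. Both groups therefore carry the diet, and a standard-diet group was not analysed here. Each group had 2 RNA-seq and 2 Ribo-seq libraries. Because the labels describe pooled RNA preparations while the methods describe single mice, the replicates are counted as libraries, and p-values measure only the spread between them.

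A synthetase joins one amino acid to its cognate transfer RNA (tRNA), and the charged tRNA then delivers that amino acid to the ribosome. Most amino acids have one enzyme for cytosolic translation and another, also encoded in the nucleus and imported, for the few proteins that mitochondria make. Several cytosolic enzymes sit in a multi-synthetase complex held together by scaffold proteins, and many cytosolic synthetase genes are known targets of ATF4, the transcription factor of the amino acid stress response.

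RNA-seq of polyadenylated RNA gave mRNA levels, and Ribo-seq of ribosome-protected fragments (RPFs) of about 28 bases gave the RNA held by ribosomes. Both are in RPKM, reads scaled by library size and gene length, and translational efficiency (TE) is the RPF RPKM divided by the mRNA RPKM. Whole reads recovered from the RPKM steps put the RNA-seq libraries at 11661207 to 22543471 reads and the Ribo-seq libraries at 141890 to 1056546, with both HB Ribo-seq libraries (257086 and 141890) below both HF libraries (387980 and 1056546). Hepatocyte markers were high in each library, with summed mRNA of 88768 to 106948 RPKM over 10 genes, while 6 T and B cell markers summed to at most 3.88 RPKM. Summed mRNA of 8 stellate cell and fibroblast markers was 37.7 and 35.7 RPKM in HF and 73.7 and 45.1 in HB. Dcn alone carried that difference (21.9 and 22.4 RPKM in HF, 57.8 and 30.6 in HB), and the other 7 markers summed to 15.8 and 13.3 RPKM in HF and 15.8 and 14.6 in HB. In RPF the 8 markers summed to 153 and 122 RPKM in HF and 103 and 92.5 in HB, and each tested marker of stellate (7), endothelial (6) and Kupffer cells (8) had a log2 fold change below 0, as did 70.4% of all genes. In mRNA, 5 of 8 Kupffer cell markers were above 0, with a median log2 fold change of 0.22 beside -0.19 for all genes. Of 6 endothelial markers, 4 were below 0 in mRNA, with a median of -0.36. Summed mRNA of 5 cholangiocyte markers was 26.2 and 31.9 RPKM in HF and 15.7 and 26.0 in HB. The part of these cell types in the results was not tested. In such bulk tissue, fewer cells of a type and less RNA per cell cannot be told apart.

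All 35 synthetases were detected in the mRNA of each library, from 0.275 RPKM for Pars2 to 58.8 RPKM for Aars. Aars, the alanyl enzyme of the cytosol, had the highest synthetase mRNA in all 4 RNA-seq libraries. Cytosolic members had a median mRNA level of 14.3 and 14.6 RPKM in HF and 15.4 and 13.2 in HB, and mitochondrial members 6.72 and 7.94 in HF and 6.32 and 6.41 in HB, so the cytosolic median was above the mitochondrial median in every library. Summed over genes, cytosolic synthetase mRNA was 327 and 306 RPKM in HF and 344 and 287 in HB, and the groups overlapped. Mitochondrial synthetase mRNA summed to 150.1 and 147 RPKM in HF and 113 and 108 in HB. These groups did not overlap, and without Lars2 the sums were 124 and 117 in HF and 106 and 100.3 in HB. With 2 libraries against 2, a two-sided exact permutation test of a single value cannot go below p = 0.333.

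Footprint depth set a narrow limit on what could be seen. The synthetases together had 493 and 1525 RPF reads in the HF libraries and 537 and 376 in the HB libraries. Members with at least 20 reads numbered 7 and 22 in HF but 5 and 1 in HB, and 7 members had no RPF read in at least one HB library. A member at 0 in the second HB library, such as Aars2, could still have up to 5.92 RPKM, the level of 3 reads. With Lars2 set aside, the remaining 34 members had 1147 and 1270 RPM (reads scaled by library size alone) of RPFs in HF and 1210 and 951 RPM in HB, and these groups overlapped.

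**Figure D1:**
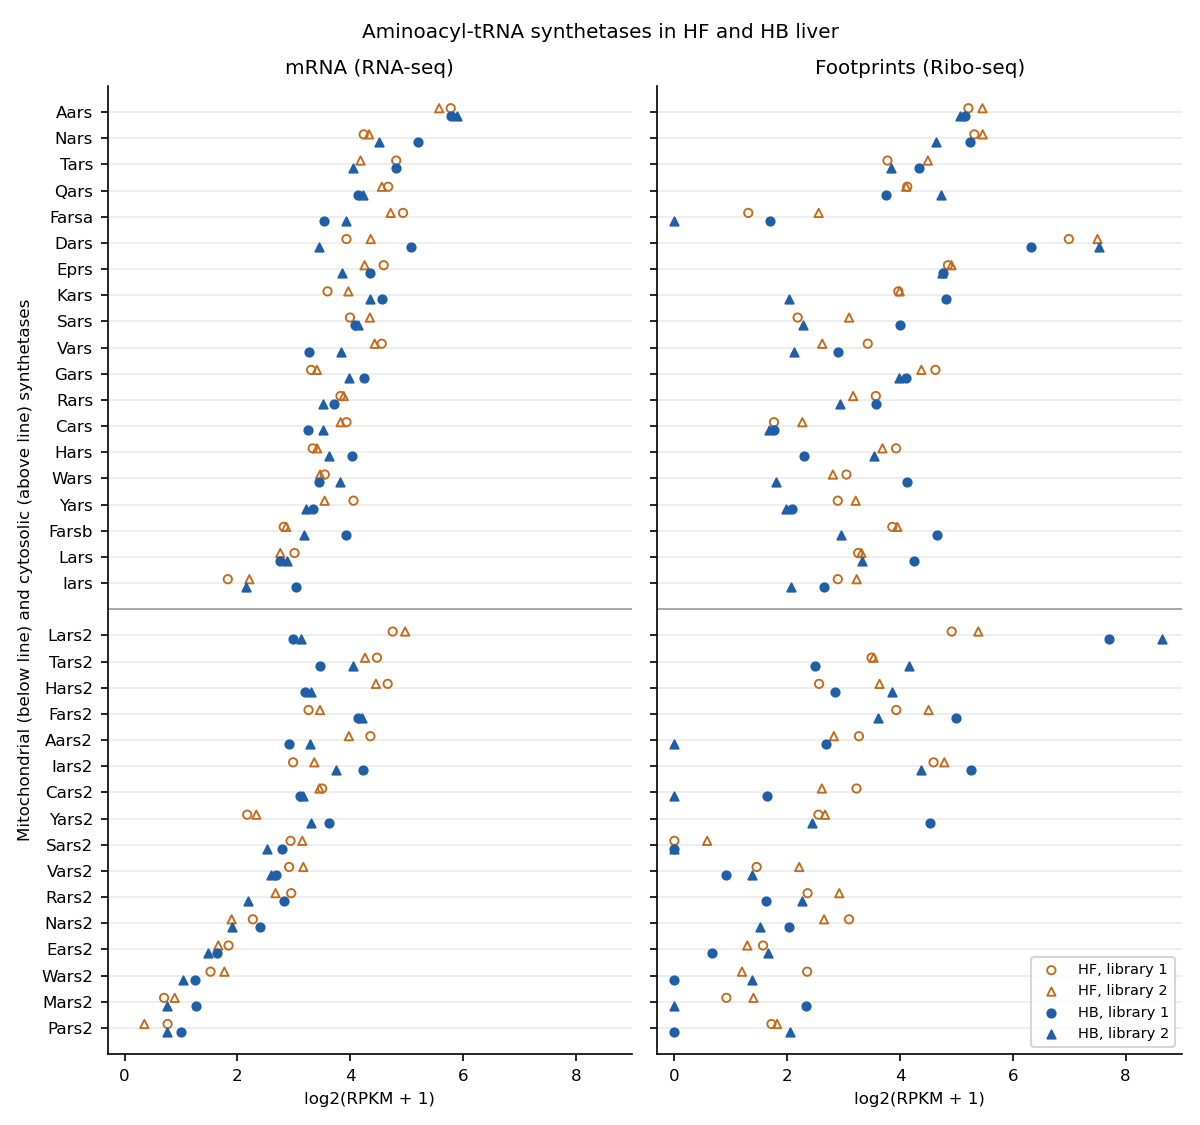
Level of each synthetase in each library as log2(RPKM + 1), for mRNA on the left and footprints on the right. Open orange symbols are HF libraries and filled blue symbols are HB libraries, with mitochondrial enzymes below the line and cytosolic enzymes above it, each ordered by mean mRNA. Lars2 footprints in HB (207 and 401 RPKM) lie above those of the other synthetases in both libraries, while its mRNA in HB (6.88 and 7.77 RPKM) lies below that in HF.

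The mRNA comparison asked which synthetase transcripts differ with betaine. Of 33 synthetases with a mean of at least 1 RPKM (Mars2 and Pars2 fell below it), Yars2 was called higher in HB and Lars2 and Hars2 were called lower, by limma with a change above 1 on the log2 scale and p under 0.001 before adjustment. Across all 10687 genes tested, 2.3% were called higher and 6.56% lower. At a Benjamini-Hochberg adjusted p under 0.05 over all genes, 3 synthetases rose (Yars2, Fars2 and Gars) and 5 fell (Lars2, Hars2, Farsa, Aars2 and Vars), against 7.92% and 19.1% of all genes. The 2 libraries of each group did not overlap for 9 synthetases that were higher in HB and 15 that were lower, beside 24.8% and 43.3% of all genes. The median log2 fold change of the synthetases was -0.19, the same as the -0.19 of all genes tested, with -0.06 for 19 cytosolic and -0.37 for 14 mitochondrial members. Setting all libraries to a common median moved the median of all genes to 0.08 and that of the synthetases to 0.08, with 0.22 for the cytosolic and -0.10 for the mitochondrial members.

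The RPF comparison asked the same of ribosome-held RNA. Of 34 synthetases tested (Sars2 fell below the filter), Lars2 was called higher in HB and none was called lower, with a change above 1 on the log2 scale and p under 0.05 before adjustment. Among 11190 genes tested, 1.58% were called higher and 7.86% lower. No gene passed an adjusted p of 0.05 in this limma fit, and 1122 genes (10%) had an unadjusted p under 0.05. The count depends on the model, since voom on recovered reads passed 51 genes higher and 28 lower and a limma fit with a replicate block passed 13 and 11, with Lars2 as the 1 synthetase in both. It depends on the libraries as well, with 700 genes lower and 1 higher without HF replicate 1 and 699 and 5 without HF replicate 2, none of them a synthetase. The libraries did not overlap for 2 synthetases that were higher (Lars2 and Lars) and 12 that were lower, beside 9.07% and 33.2% of all genes. The median log2 fold change in RPF was -0.28 for the synthetases and -0.43 for all genes.

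For TE, 32 synthetases were tested. Lars2 was called higher and none lower (a change above 2 on the log2 scale and p under 0.05 before adjustment), where 1.49% and 4.6% of 9455 genes were called. Tarsl2, a threonyl-tRNA synthetase-like gene outside this set, was called lower and is given with the partners of tRNA charging below. No gene passed an adjusted p of 0.05 in limma (1 gene, not a synthetase, did when both assays entered a single model with an interaction term), and 1154 (12.2%) had an unadjusted p under 0.05. Leaving out a HB library changed this, with 321 genes higher and 1280 lower without HB replicate 1 (Lars2 higher, Cars2 and Kars lower) and 294 and 748 without HB replicate 2 (Lars2 higher, Dars and Hars lower). The 2 libraries of each group did not overlap for 3 synthetases that were higher in HB and 10 that were lower, beside 14% and 31.7% of all genes. The median log2 fold change in TE was -0.37 for the synthetases and -0.35 for all genes. Median TE per library was 0.817 and 0.970 in HF and 0.753 and 0.848 in HB over the synthetases.

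**Figure D2:**
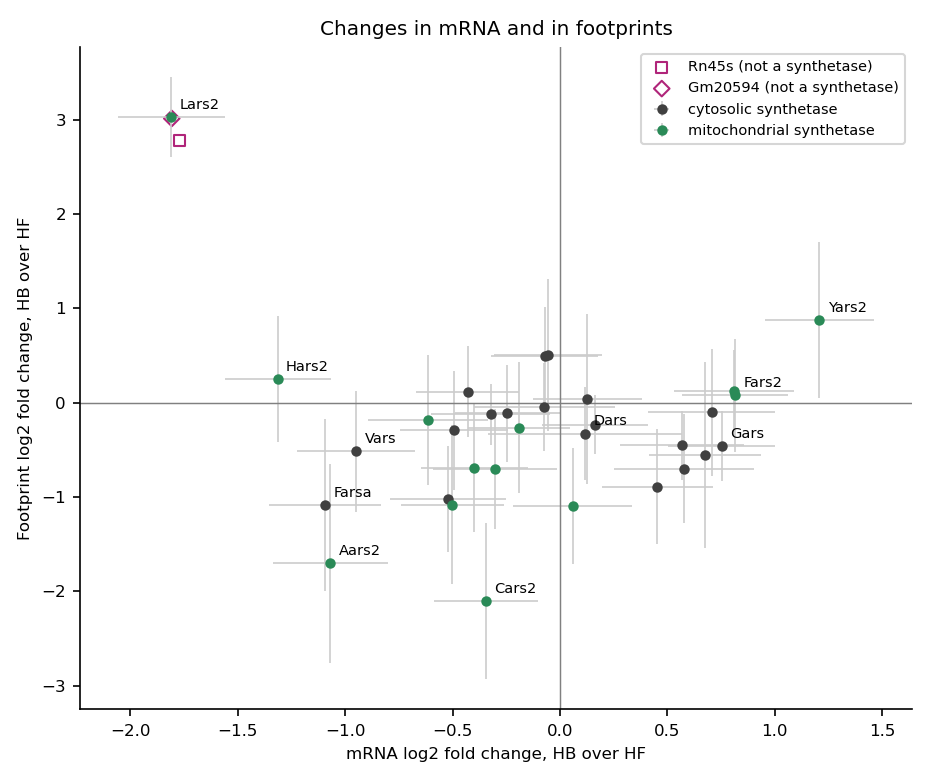
Log2 fold change of mRNA (horizontal) against that of footprints (vertical), HB over HF, for the 32 synthetases tested in both assays, with bars of 1 standard error from limma. Lars2 lies alone among the synthetases at -1.81 in mRNA and 3.02 in footprints, next to Rn45s and Gm20594, which are not synthetases and are drawn without bars.

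Lars2, the leucyl enzyme of mitochondria, stood apart from the other synthetases, with less mRNA and more RPFs in HB. It lies on chromosome 9 at 123366927 to 123462666, plus strand, in GENCODE M21 on GRCm38, and no other gene there shares exon bases with it. Its mRNA was 26.0 and 30.4 RPKM in the HF libraries and 6.88 and 7.77 RPKM in the HB libraries, from 577 to 1478 reads each. Among the 35 synthetases this was the 4th and 2nd highest mRNA in HF and the 25th in both HB libraries. The log2 fold change was -1.81 ± 0.25 (standard error) with a limma adjusted p of 0.00523, and the groups did not overlap.

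Footprints of Lars2 moved the other way. RPFs were at 29.2 and 40.9 RPKM in HF and 207 and 401 RPKM in HB, from 48, 183, 226 and 241 reads. Both HB libraries held more Lars2 reads than either HF library although they were sequenced less deeply. Lars2 took 9.74% and 12% of all synthetase RPF reads in HF and 42.1% and 64.1% in HB. Its rank by RPF RPKM among the synthetases went from 4th in both HF libraries to 1st in both HB libraries. The log2 fold change was 3.02 ± 0.42, the limma p was 0.00094 before adjustment and 0.493 after it, and it was the 34th largest rise of the 11190 genes tested. The adjusted p was 0.0145 with a replicate block and 5.1e-16 with voom on recovered reads (log2 fold change 2.98 ± 0.33), a fit in which all genes share 1 trend of the spread. From reads summed over the libraries of each group, the share of library reads on Lars2 in HB was 7.32 times that in HF (95% exact counting interval 6.24 to 8.61, which covers counting error only).

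TE of Lars2 was accordingly 1.12 and 1.34 in HF and 30.1 and 51.6 in HB. In HF these values were close to the median TE of all genes (1.07 and 1.02), and in the HB libraries they were the 15th and 8th highest of all genes. The TE log2 fold change was 4.83 ± 0.50, with a limma p of 6.56e-05 unadjusted and 0.328 adjusted. Only Hamp2, with 0 and 1 RPF reads in HF and 6 and 3 in HB, had a larger TE rise among the 9455 genes. Besides Lars2, 7 genes were called lower in mRNA and higher in RPF, out of 9455 tested in both assays.

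The question of ribosomal RNA (rRNA) reads on Lars2 was put to the files in 2 ways. First, Rn45s, the 45S pre-rRNA entry and the only rRNA entry present in the files, was set beside it. Rn45s had 115 and 167 RPKM in the HF RNA-seq libraries and 16.5 and 95 in HB. Its Ribo-seq values were 114 and 47.7 RPKM in HF and 498 and 529 in HB. Both Lars2 and Rn45s were thus lower in HB in RNA-seq and higher in HB in Ribo-seq, with no overlap of groups. For Rn45s the log2 fold change was -1.77 in mRNA (limma adjusted p = 0.0599), 2.78 in RPF (unadjusted p = 0.00213) and 4.55 in TE (unadjusted p = 0.00308). The mRNA value of Rn45s rests on 1 library, at -0.54 without HB replicate 1 and -3.00 without HB replicate 2 (limma adjusted p = 0.179 and 0.000241). The number of Lars2 reads per Rn45s read was not constant, at 0.185, 0.622, 0.303 and 0.550 in Ribo-seq and 0.159, 0.128, 0.294 and 0.0576 in RNA-seq, in the order HF 1, HF 2, HB 1 and HB 2.

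Second, reference transcripts were searched for stretches of 28 bases, about a footprint's length, that also occur on either strand in rRNA. The rRNA set held 354 nuclear and 2 mitochondrial rRNA transcripts of GENCODE together with Gm26917 and Gm42418, which hold rRNA sequence. None of the 9 Lars2 transcripts and none of the 35 synthetases held such a stretch, and 20 of 54984 genes did (0.0364%). The search with 24 bases gave 0 for Lars2 as well, and 26 genes. The full 28S and 45S rRNA were not used here, and the recovered Lars2 gene lengths (4106 bases in RNA-seq and 4237 in Ribo-seq) are longer than its longest GENCODE transcript (3894 bases), so a match outside the searched sequence was not tested. Nor do per-gene RPKM values show where on Lars2 the reads lie.

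Of the 20 genes with rRNA stretches, 12 were in both assays and 9 were tested in RPF, of which 2 were called higher in HB (Gm20594 and Tmem38b) and 0 lower, beside 1.58% and 7.86% of all genes. Gm20594, a coding gene of chromosome 6 with 49 such 28-base stretches from mt-Rnr2, the mitochondrial 16S rRNA, was singled out after its values were seen. Its RPFs were 4908 and 5625 RPKM in HF and 47166 and 38066 RPKM in HB, and its RNA-seq values 103 and 128 RPKM in HF and 27.8 and 37.1 in HB. The log2 fold changes of Gm20594 were -1.81 in mRNA, 3.01 in RPF and 4.82 in TE, beside -1.81, 3.02 and 4.83 for Lars2. These are the 3rd and 2nd largest TE rises of all genes, and Rn45s has the 4th. The other genes with rRNA stretches that were tested in TE had log2 fold changes from -1.02 (Lbr) to 1.59 (Tmem38b). Reads from protein-coding genes other than Lars2, with Gm20594 counted as coding, were 93.5% and 92.5% of all reads in the HF Ribo-seq libraries. In the HB libraries they were 88.1% and 81.6%. The remaining reads, a larger share in HB, include Lars2 and any entry whose symbol GENCODE lacks, so they are not all from other RNA. The part of rRNA in the Lars2 result was not tested.

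**Figure D3:**
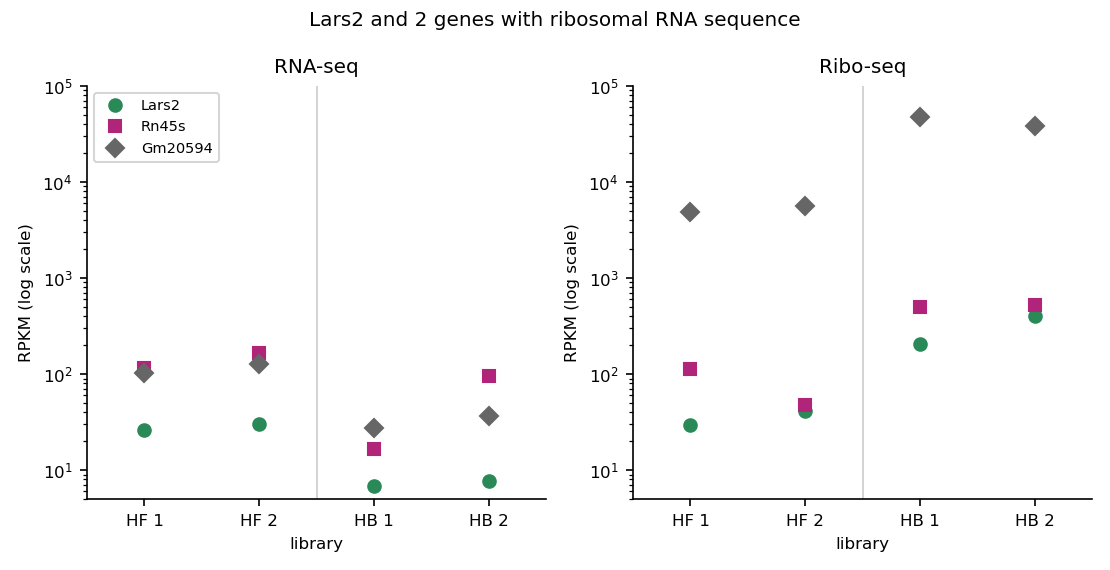
RPKM on a log scale of Lars2, Rn45s and Gm20594 in each RNA-seq library (left) and each Ribo-seq library (right), with HF left of the line and HB right of it. All 3 genes are lower in both HB libraries than in both HF libraries in RNA-seq and higher in Ribo-seq, Lars2 from 29.2 and 40.9 to 207 and 401 RPKM.

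Among the other mitochondrial synthetases, the called mRNA changes went in both directions and none had a called RPF change. Hars2, the histidyl enzyme, had 24.4 and 20.9 RPKM of mRNA in HF and 8.17 and 8.83 in HB, a log2 fold change of -1.31 ± 0.25 (limma adjusted p = 0.00759). The HB libraries were both below the HF libraries. Its RPFs, at 4.92 and 11.4 RPKM in HF and 6.19 and 13.4 in HB, overlapped between groups, and they rest on 55 reads in all. Hars2 starts 197 bases from the start of Hars, the cytosolic histidyl enzyme, on the opposite strand of chromosome 18, and the exons of the pair share 195 bases. The RNA-seq kit does not mark strand, so reads from the shared bases cannot be told apart. Hars mRNA was 9.10 and 9.65 RPKM in HF and 15.4 and 11.3 in HB (limma adjusted p = 0.216).

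Yars2, the tyrosyl enzyme (chromosome 16, 16302965 to 16309640), was the synthetase with the largest mRNA rise. Its mRNA was 3.51 and 4.05 RPKM in HF and 11.3 and 8.85 in HB, a log2 fold change of 1.21 ± 0.26 (limma adjusted p = 0.0106). Both HB libraries were above both HF libraries. Its RPFs were 4.87 and 5.37 RPKM in HF but 22.1 and 4.44 in HB, so the libraries of HB fell on both sides of HF. They rest on 3, 9, 9 and 1 reads, and the limma adjusted p was 0.707.

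Fars2, the phenylalanyl enzyme, also rose in mRNA, from 8.59 and 10.0 RPKM in HF to 16.6 and 17.6 in HB (log2 fold change 0.82 ± 0.24, limma adjusted p = 0.036). Aars2, the alanyl enzyme, fell from 19.5 and 14.7 RPKM to 6.53 and 8.75 (log2 fold change -1.07 ± 0.27, limma adjusted p = 0.0194), but did not pass at a common median (-0.80, limma adjusted p = 0.0595). The groups did not overlap for either gene in mRNA. Fars2 shares exon bases with Lyrm4 and Nrn1 on the other strand (115 and 501 bases). RPFs of Fars2 were 14.3 and 21.7 RPKM in HF and 30.8 and 11.2 in HB, and those of Aars2 were 8.66 and 6.10 in HF, 5.45 in one HB library and 0 in the other. Neither difference passed the RPF test (limma adjusted p = 0.967 and 0.621).

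Iars2, the isoleucyl enzyme, had 176 RPF reads, the most of any mitochondrial synthetase after Lars2. Its mRNA was 6.93 and 9.29 RPKM in HF and 17.8 and 12.4 in HB, with a log2 fold change of 0.81 and a limma adjusted p of 0.0562, which misses the threshold. It passed with a replicate block (0.0422), at a mean of at least 5 RPKM (0.048), at a common median (0.0204) and without HB replicate 2 (0.0138). Its RPFs were 23.2 and 26.6 RPKM in HF and 37.1 and 19.8 in HB, and overlapped. Iars2 shares 2034 exon bases with Rab3gap2 on the other strand, which may limit its RNA-seq value in the same way as for Hars2. Its counted length in RNA-seq was 3540 bases, below its longest GENCODE transcript (5471), so whether the shared bases were counted is not known. The remaining mitochondrial enzymes tested in mRNA (Cars2, Ears2, Nars2, Rars2, Sars2, Tars2, Vars2 and Wars2) had log2 fold changes between -0.61 and 0.06, and none passed an adjusted p of 0.05.

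In the cytosolic group, 1 member of 19 rose and 2 fell in mRNA at an adjusted p under 0.05, where 7.92% and 19.1% of all genes did, and none passed the thresholds of the RPF or TE comparison. Farsa, the catalytic subunit of the phenylalanyl enzyme, had 29.6 and 25.3 RPKM in HF and 10.6 and 14.2 in HB (log2 fold change -1.09 ± 0.26, limma adjusted p = 0.0159), but did not pass at a common median (-0.82, limma adjusted p = 0.0513). Farsb, the other subunit of that enzyme, was at 6.07 and 6.29 RPKM in HF and 14.2 and 8.05 in HB (log2 fold change 0.71, limma adjusted p = 0.102). Neither gene's mRNA overlapped between groups, and the 2 subunits had opposite signs, although only Farsa passed the test. Farsb passed at a common median (0.98, limma adjusted p = 0.0319) and without HB replicate 2 (1.08, adjusted p = 0.00914), and had 0.33 without HB replicate 1 (adjusted p = 0.353). Farsa had 11 RPF reads in all and was at 0 in the second HB library.

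Vars, the valyl enzyme, had 22.6 and 20.6 RPKM of mRNA in HF and 8.61 and 13.2 in HB (log2 fold change -0.95 ± 0.27, limma adjusted p = 0.0313), but did not pass at a common median (-0.68, limma adjusted p = 0.106). Its RPFs were 9.76 and 5.15 RPKM in HF and 6.45 and 3.34 in HB, and overlapped. Gars, the glycyl enzyme, had 8.90 and 9.63 RPKM of mRNA in HF and 17.9 and 14.8 in HB (log2 fold change 0.75 ± 0.25, limma adjusted p = 0.0491). Gars RPFs were 23.7 and 19.8 RPKM in HF and 16.3 and 14.7 in HB. Its HB values were thus higher in mRNA and lower in RPF than the HF values with no overlap in either, but the RPF difference did not pass (limma adjusted p = 0.663), and its TE of 2.67 and 2.06 in HF and 0.909 and 0.997 in HB had a log2 fold change of -1.21, short of the threshold of 2. The Gars mRNA call is the least stable of the 8, and it did not pass an adjusted p of 0.05 in 9 of 14 alternatives.

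The cytosolic members with the most RPF reads were Aars, Eprs, Dars and Nars, and none of their RPF differences passed the test. Aars, which shares 1326 exon bases with Exosc6 on the same strand, was counted beside that gene, so its reads may be split. The counted length of Aars was 3715 bases, below its longest GENCODE transcript (5750), so whether the shared bases were counted is not known. Aars RPFs were 36.1 and 43.1 RPKM in HF and 34.6 and 32.3 in HB (log2 fold change -0.23, limma adjusted p = 0.794). Eprs, which charges both glutamic acid and proline tRNAs, had 27.8 and 29.1 RPKM in HF and 26.2 and 25.9 in HB (log2 fold change -0.13, limma adjusted p = 0.893). Nars, the asparaginyl enzyme, had 38.9 and 43.2 RPKM in HF and 36.7 and 23.9 in HB (log2 fold change -0.45, limma adjusted p = 0.663). From summed reads, the ratio of HB to HF was 0.819 for Aars (95% counting interval 0.590 to 1.12), 0.905 for Eprs (0.652 to 1.24) and 0.765 for Nars (0.512 to 1.11), so counting error alone leaves room for a fall or for a small rise in each.

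Dars, the aspartyl enzyme, had the highest RPF level of the synthetases in both HF libraries, at 126 and 180.3 RPKM, and 78.6 and 183 RPKM in HB. Its mRNA was 14.3 and 19.6 RPKM in HF and 32.9 and 9.94 in HB, so the HB libraries lay on both sides of HF. Its TE was 8.85 and 9.20 in HF and 2.39 and 18.4 in HB. The RPKM steps of Dars give whole reads with a gene length of 693 bases in Ribo-seq and 2232 bases in RNA-seq, and with RPM, and so no length, in both assays, an alternative added after the lengths were seen, its TE was 2.75 and 2.86 in HF and 0.741 and 5.72 in HB. Because 693 is the smallest length that gives whole reads, a multiple of it is possible and would raise this second TE. The level of its TE is therefore not settled, while the comparison of HB with HF does not rest on the length. The log2 fold changes of mRNA, RPF and TE were 0.12, -0.33 and -0.45 with limma adjusted p of 0.868, 0.817 and 0.864.

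The 7 measured enzymes of the multi-synthetase complex (Dars, Eprs, Iars, Kars, Lars, Qars and Rars) had mRNA log2 fold changes between -0.43 and 0.68, with a median of -0.07, and none was called in any of the 3 comparisons. Kars, the lysyl enzyme, had the largest, with 11.1 and 14.6 RPKM in HF and 22.7 and 19.4 in HB (limma adjusted p = 0.0794, with 0.0279 at a common median and 0.0429 without HB replicate 2). RPFs of Lars, the cytosolic counterpart of Lars2, were 8.57 and 8.95 RPKM in HF and 17.9 and 9.01 in HB, with mRNA of 7.07 and 5.78 in HF and 5.76 and 6.34 in HB. The RPF groups of Lars did not overlap, but its second HB library lay close to both HF libraries, and the limma adjusted p was 0.733.

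**Figure D4:**
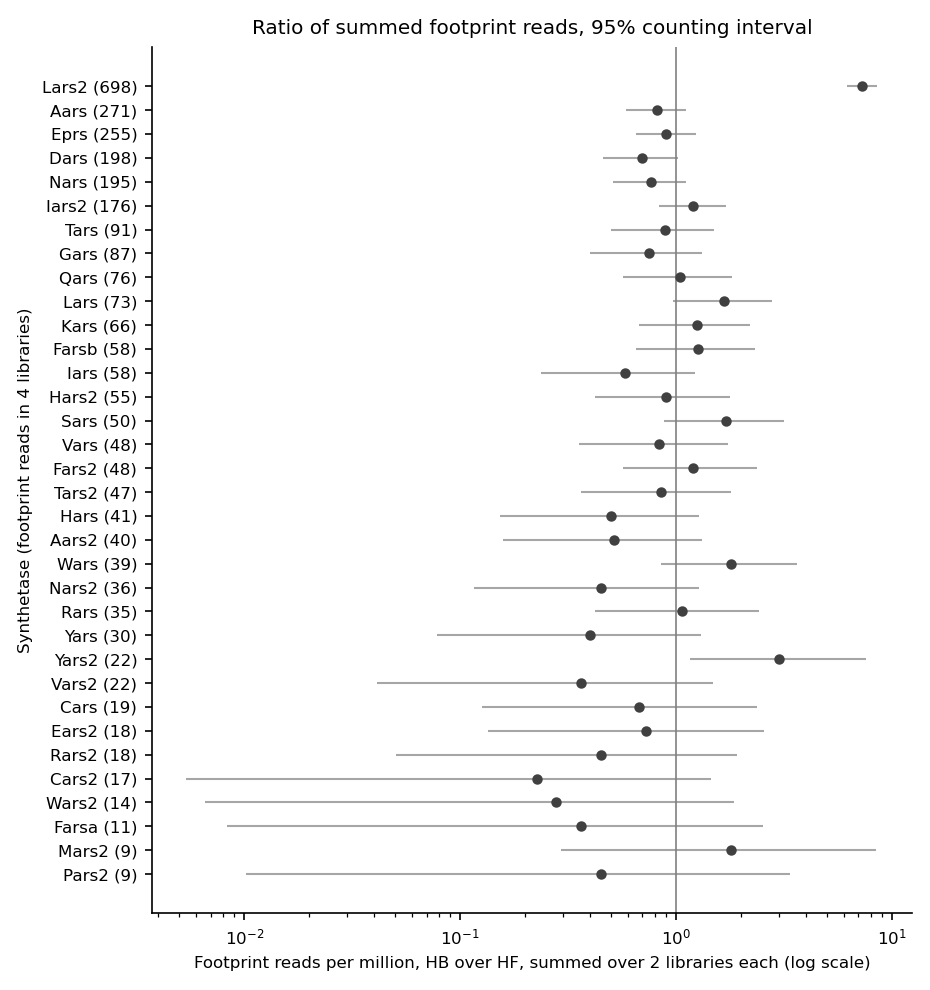
Ratio of the share of library reads that are footprints of each gene, HB over HF, from reads summed over 2 libraries per group, on a log scale, for the 34 synthetases with reads in both groups, ordered by total RPF reads, which stand in brackets. Bars are 95% exact counting intervals and leave out the spread between libraries. Intervals of 2 members exclude 1, namely Lars2 (698 reads) at 7.32 and Yars2 (22 reads) at 3.02.

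In view of the known link to ATF4, the promoters of the members were searched for TGATGNAA on both strands, the core that ATF4 and C/EBP proteins bind together. RefSeq promoters (GRCm38.p6, 250 bases before to 50 after the start) were found for 26 members, and 5 of them held the core, all cytosolic. Of 32851 promoters of the same length, 3.97% held it. One window per gene is shown so that the match can be read against each gene's values, 5′ to 3′ on the strand of the gene, with the match in capitals (TTNCATCA is the same core on the opposite strand).
Yars, chr4:129189896-129189923: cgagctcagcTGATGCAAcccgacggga
Gars, chr6:55037961-55037988: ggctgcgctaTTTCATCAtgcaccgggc
Aars, chr8:111033841-111033868: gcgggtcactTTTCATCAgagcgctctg
Iars, chr13:49682127-49682154: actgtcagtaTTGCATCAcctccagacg
Tars, chr15:11399656-11399683, minus strand: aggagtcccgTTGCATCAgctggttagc

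The 5 members with the core did not move together in mRNA. Gars rose (log2 fold change 0.75, above), and the values were 0.58 for Iars, 0.16 for Aars, -0.07 for Tars and -0.52 for Yars, none of which passed an adjusted p of 0.05. In RPF all 5 had log2 fold changes below 0, from -1.02 for Yars to -0.05 for Tars, and none was called, while 7879 of the 11190 genes tested were also below 0. A match is a description of these letters and not a bound site.

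Genes of the amino acid stress response were lower in mRNA more often than higher, as were genes in general (15 of 18 below 0, beside 6435 of all 10687). Of the 18 tested from a list of 28, none passed the study's thresholds, and 6 fell and 1 rose at a limma adjusted p under 0.05, where 19.1% and 7.92% of all genes did, with a median log2 fold change of -0.47 beside -0.19 for all genes. The falls depend on the scaling and the libraries. At a common median 1 of the 18 fell (Ddit3), where 1039 of all 10687 genes fell, and the median was -0.20, beside 0.08 for all genes. Without the filter none of 28 tested passed, and neither did any of all 16758 genes. The number of falls also moved with the library left out, in the list and among all genes. The median of the list was -0.21 beside -0.18 for all genes without HF replicate 1, and -0.71 beside -0.19 without HF replicate 2. Atf4 mRNA was 99.7 and 88.3 RPKM in HF and 51.3 and 55.6 in HB (log2 fold change -0.80, limma adjusted p = 0.0392). Ddit3, which encodes the stress-induced factor CHOP, was 37.8 and 44.8 RPKM in HF and 13.9 and 20.95 in HB (log2 fold change -1.22, limma adjusted p = 0.0133). Slc38a2, an amino acid transporter, fell from 86.8 and 66.3 RPKM to 35 and 38.6 (log2 fold change -1.03, limma adjusted p = 0.0194), and its RPFs were 70.3 and 54.3 RPKM in HF and 31.7 and 40.9 in HB (limma adjusted p = 0.528). In RPF, 2 of 17 tested were called lower, beside 7.86% of all genes, namely Ddit3 and Psph, an enzyme of serine synthesis, with 0 reads in both HB libraries and 5 reads each in all. In TE, Ppp1r15a, which encodes a subunit that directs a phosphatase to eIF2α, was called higher (log2 fold change 2.11, limma adjusted p = 0.37, 26 RPF reads), 1 of 15 tested beside 1.49% of all genes. Eif4ebp1, which encodes a repressor of cap-dependent initiation, was the one that rose in mRNA.

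In mRNA, partners of tRNA charging and tRNA-processing enzymes moved in both directions. The partners had 13 of 18 above 0, beside 4252 of all 10687 genes, with a median log2 fold change of 0.28 beside -0.19. The tRNA-processing genes had 10 of 19 above 0 and a median of 0.02. Of 18 partners tested in mRNA, 1 was called lower (Sepsecs, the last enzyme of selenocysteyl-tRNA synthesis), at 19.6 and 20.5 RPKM in HF and 8.02 and 6.92 in HB (log2 fold change -1.31, limma adjusted p = 0.00748), where 6.56% of all genes were called lower, while its RPFs were 19.9 and 26.3 RPKM in HF and 24.8 and 21.8 in HB. At an adjusted p under 0.05, Dtd2 and Gatb rose, where 7.92% of all genes rose and 19.1% fell. These 2 rises became 0 without the filter, where none of all 16758 genes rose, and 1 at 5 RPKM, where 733 of 6648 did. They became 1 at a common sum (699 of 10695 genes) and 4 at a common median (1519 of 10687 genes). The number of rises also moved with the library left out, in the list and among all genes. In footprints most partners lay below 0, with 12 of 15 negative in both RPF and TE and medians of -0.98 and -1.13, beside -0.43 and -0.35 for all genes, of which 70.4% and 63.2% lay below 0. This gap in RPF rests on low genes and on 1 library, since the partners' RPF median was -0.11 beside -0.34 for all genes at a mean of at least 5 RPKM (7 partners), -0.04 beside -0.26 without HB replicate 2, and -1.45 beside -0.51 without HB replicate 1. In TE the partners' median was -0.44 beside -0.36 at 5 RPKM. It was -0.78 beside -0.23 without HB replicate 2 and -1.50 beside -0.40 without HB replicate 1, so the TE gap stayed without either HB library. Of the 18 partners, 2 and 1 had no RPF read in the HF libraries and 6 and 10 had none in the HB libraries, which were sequenced less deeply. Dtd1 and Yrdc were called lower in RPF, where 7.86% of all genes were, and both had 0 reads in both HB libraries and at most 13 reads in all. Aimp2, a scaffold of the multi-synthetase complex, was called higher in TE from 12 RPF reads. Of the list, 4 genes were called lower in TE (Tarsl2, Dtd1, Dtd2 and Yrdc). Among all genes, 1.49% were called higher and 4.6% lower. Tarsl2, a threonyl-tRNA synthetase-like gene, was counted in this list and not among the synthetases above. Its TE log2 fold change was -2.70 (limma adjusted p = 0.364), from 32 RPF reads. Of 19 tRNA-processing genes tested in mRNA, none was called by the study's thresholds. At an adjusted p under 0.05, 3 rose and 2 fell, where 7.92% and 19.1% of all genes did. These counts became 0 and 0 without the filter, as for all genes, and 2 and 1 at 5 RPKM (733 and 1370 of 6648 genes). At a common median they were 4 and 0 (1519 and 1039 of 10687 genes). Both also moved with the library left out, in the list and among all genes. Rtcb, the tRNA ligase, rose from 8.19 and 10.9 RPKM to 27.4 and 18.5 (log2 fold change 1.17, limma adjusted p = 0.0166), and Tsen34, a subunit of the tRNA-splicing endonuclease, from 15.6 and 12.3 to 28.3 and 29.0 (adjusted p = 0.0194), whereas Tsen54, another subunit of it, fell from 8.26 and 8.15 to 3.62 and 3.81 (adjusted p = 0.0189).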

How the data were processed

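Liver polyadenylated mRNA and ribosome-protected fragments were measured in 8 libraries. Per the study and its processing notes, FANSe2 placed the reads on mm10. The authors deposited RPKM values for each gene and library. The authors used edgeR on read counts, which the files do not hold. Counted regions are not given in the sources used here. Here, limma 3.58.1 in R 4.3.3 (moderated tests with a variance trend) was fitted to log2(RPKM + 1) of all genes with a mean of at least 1 RPKM, and p-values were Benjamini-Hochberg adjusted over all of them. Fold changes on this scale understate changes of low genes. TE was tested as log2((RPF + 1)/(mRNA + 1)) of same-numbered libraries. Reads were recovered from RPKM steps (99.673% of RNA-seq values above 0 were whole at one gene length, within 0.01 reads plus 3e-07 per read, and for Ribo-seq the tolerance was 0.002 reads plus 2e-08 per read), and served depth, floors of 3 reads and intervals. Thresholds are those of the study. Named genes were Lars2, each member called or at an adjusted p under 0.05, and the 4 cytosolic and 4 mitochondrial members with most RPF reads, besides up to 3 called genes of each other list with the smallest p and Rn45s, while further genes of those lists and other members were named after their values were seen. Members and lists were chosen with earlier results of these data known. GENCODE M21 gave positions and transcripts, and RefSeq gave promoters. Alternatives covered the pseudocount, filter, scaling, variance trend, replicate block, adjusted threshold, voom on recovered reads and leaving out each library.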

Additional observations from a re-analysis of the deposited data

Results flagged for a closer look

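Lars2 moved in opposite directions in the 2 assays. HB against HF gave a log2 fold change of -1.81 in mRNA and 3.02 in RPF, and the difference between them, tested as the change in TE, was 4.83 (limma, unadjusted p = 6.56e-05, adjusted p = 0.328), with both HB ratios above both HF ratios. Rn45s (4.55) and Gm20594 (4.82), which carries 28-base stretches of mitochondrial 16S rRNA, had TE changes of like size. Gm20594 was singled out after its values were seen. The other genes with rRNA stretches that were tested in TE had smaller changes. Their log2 fold changes were 1.59 (Tmem38b), -0.13 (Emc7), -0.23 (Eif2ak2), -0.35 (Slco2a1), -0.81 (Sp100), -0.92 (Cpq) and -1.02 (Lbr). The part of rRNA reads in the Lars2 result was not tested.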

How the results depend on the processing

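With 2 libraries per group and few footprints per member, counts of calls moved with the settings, while no change of a single named gene that was refitted (48 gene results, synthetases and list genes) turned in direction. The mRNA median of the synthetases did turn, and so did their RPF median. Lars2 kept its direction in each alternative, from -1.94 to -1.54 in mRNA, 2.16 to 3.5 in RPF and 4.01 to 5.23 in TE, and its mRNA adjusted p rose to 0.0539 without the filter, with the same fold and more genes tested, while it stayed past the study's thresholds. In RPF and TE it did not pass an adjusted p (0.493 and 0.328), although it did in RPF with voom and with a replicate block, and in TE without HB replicate 1 or 2 (adjusted p = 0.00125 and 0.00395). In mRNA, the 1 call higher became 0 without a filter, at a mean of at least 5 RPKM, at a common sum, when scaled to protein-coding reads and with voom. The 2 calls lower became 1 without a filter and at a common median and 4 at an adjusted p. The 3 rises at an adjusted p became 0 without a filter, 1 at a common sum and 6 at a common median, and the 5 falls became 0 without a filter and 2 at a common median. Over all genes, 846 rose and 2044 fell in the main fit and none did without a filter. At a common sum 699 rose and 2059 fell, and at a common median 1519 rose and 1039 fell. The mRNA median was -0.26 with a pseudocount of 0.1 and with voom, -0.0726 without a filter, -0.25 at 5 RPKM and 0.0812 at a common median. In RPF, calls higher became 0 at an adjusted p, calls lower became 5 at a common sum and 1 without the trend, and the median became -1.04 at a common sum, which also moved the median of all genes to -1.19, and 0.045 at a common median, where that of all genes was -0.10. In TE, calls higher became 0 at an adjusted p, calls lower 3 at a common sum, and the median -1.05 at a common sum and -0.22 when scaled to protein-coding reads. The causes of these moves were not tested.

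Leaving out each library in turn, where the lone sample left is assumed to vary like the others, changed the mRNA calls of the synthetases. At an adjusted p, the numbers that rose and fell changed both among the synthetases and among all genes. The mRNA median of the synthetases ran from -0.317 to -0.0802, beside -0.226 to -0.147 for all genes. RPF gave 1 to 3 calls higher and 0 to 3 lower (3 lower without HB replicate 1, 3 higher and 2 lower without HB replicate 2), with a median from -0.39 to -0.24. TE gave 1 to 2 higher and 0 to 3 lower (2 higher and 3 lower without HB replicate 1, 1 lower without HB replicate 2), with a median from -0.57 to -0.11. Mean TE of Lars2 ranged from 1.12 to 1.34 in HF and from 30.1 to 51.6 in HB. With a replicate block, mRNA calls were 1 higher and 3 lower, with 3 rises and 5 falls at an adjusted p, a median of -0.19, and Gars no longer passing (adjusted p = 0.0585). RPF and TE under the block each had 1 call higher and 0 lower, with medians of -0.28 and -0.37. Same-numbered libraries of HF and HB did not deviate together (r = -0.104 across genes in mRNA and -0.0138 in RPF). With few RPF reads per gene, counting error can hold such an r near 0, so pairing of footprint libraries cannot be judged from it. Same-numbered mRNA and RPF libraries, which TE divides, did not deviate together either (r = -0.00239 in HF and -0.0774 in HB), with the same limit. The TE rise of Lars2 was 4.83 with the numbers crossed (limma adjusted p = 0.335). Depth limits the footprint values, and 9 of 35 members had under 20 RPF reads in all 4 libraries together.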
